A study of Homo sapiens with 7 samples.

Results

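The comparison described here is that of HT1080 cells given 5% pycnogenol-positive serum for 2 h with HT1080 cells given 5% control serum for 2 h. Each condition was measured on 1 array, so these are 2 of the 7 arrays of the series. The log2 difference, pycnogenol serum minus control serum, was taken for each probe set whose mean signal over the 7 arrays was at least 269, which kept 20336 of 54675 probe sets (37.2%). The dimmest probe set kept had a mean signal of 269.02 and the brightest one left out had 268.79. Of the probe sets kept, 17795 named exactly 1 gene, and they covered 9950 genes. Where a gene is described by 1 value, it is that of its brightest probe set, by mean log2 signal over the 7 arrays.

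HT1080 is an established human fibrosarcoma line. The study gave it pine bark constituents, resveratrol or serum, and the question stated in its title is that of anticancer effects on fibrosarcoma cells. The cells were grown in medium with 10% fetal bovine serum and plated 24 h before exposure, and then the medium was replaced. The positive serum came from patients who had taken pycnogenol, a standardised extract of French maritime pine bark rich in procyanidins. The labels do not say whose serum the control serum was. The 5 arrays without test serum were from cells given 1 compound for 2 h (11.25 ng/ml of catechin, 6.25 ng/ml of epicatechin, 6.25 ng/ml of taxifolin, or 2195 ng/ml of resveratrol) and from cells given nothing, for which no time, medium change or solvent is stated. These 5 cultures are 5 conditions and not replicates, and their range serves only as a background against which either serum array can be seen to depart. With 1 array per condition there is no replicate error and no test of any difference, and serum source, culture and array cannot be told apart.

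ATF4 is a transcription factor whose mRNA is translated when the kinases of the integrated stress response phosphorylate eIF2alpha, as happens when amino acids run short or when misfolded protein builds up in the endoplasmic reticulum. It switches on amino acid transporters, biosynthetic enzymes and aminoacyl-tRNA synthetases, and, with its partner CHOP (gene DDIT3), a second set that includes CHAC1, TRIB3 and DDIT4. DDIT4 and SESN2 restrain mTORC1, the kinase complex through which growth factors and nutrients drive translation. Serum acts on cultured fibroblast-like cells through growth factors, lysophospholipids and steroid hormones, and immediate early genes such as EGR1 and glucocorticoid targets such as TSC22D3 read out such signals.

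Between the serum arrays, 211 probe sets (1.04%) lay at or past 2-fold, 112 higher (0.551%) and 99 lower (0.487%) with pycnogenol serum. The 10 pairs of arrays without test serum gave 108 to 263 such probe sets. In 9 of those pairs the count was below 211, and only the pair of the untreated and resveratrol arrays, with 263, was above it. Without the resveratrol array the highest count was 151, and without the untreated array it was 181, so that 211 then lay above every pair. By contrast, the 10 pairs that set a serum array against an array without test serum gave 292 to 534. The SD of the log2 difference was 0.315 between the serum arrays, 0.269 to 0.326 between arrays without test serum (0.269 to 0.293 without the resveratrol array) and 0.349 to 0.408 between a serum array and one of those. Of the 211 probe sets, 116 had a dimmer serum signal below 269, which left 95 with both signals above it, 52 higher and 43 lower. By genes, 25 of 9950 were at least 2-fold higher (0.251%) and 34 at least 2-fold lower (0.342%), 0.593% in all. Median signals were 118 and 114 on the pycnogenol and control serum arrays and 121 to 136 on the others. The GAPDH 3' to 5' signal ratio, a measure of RNA integrity and labelling, ran from 0.961 to 1.12 over the 7 arrays, with 1.09 on the pycnogenol and 1.06 on the control serum array. The ACTB ratio ran from 2.40 to 4.02, with 2.82 and 2.55 on the serum arrays. Of 17 HT1080 and mesenchymal markers, which include the enzyme gene IDH1, 13 were above the filter. Vimentin read 49663 on the pycnogenol and 48089 on the control serum array. The summed signal of the 17 was 206677 to 213767 on the 5 arrays, 217102 with control serum and 230274 with pycnogenol serum. Of 21 blood cell markers 2 were above the filter, HBB (227 to 413 on the 5 arrays, 382 with control and 522 with pycnogenol serum) and CD79A, with summed signals of 1740 to 2025 on the 5 arrays, 1730 with control serum and 2029 with pycnogenol serum, and of 14 epithelial and endothelial markers none was. The part of these differences in the results was not tested.

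**Figure D1:**
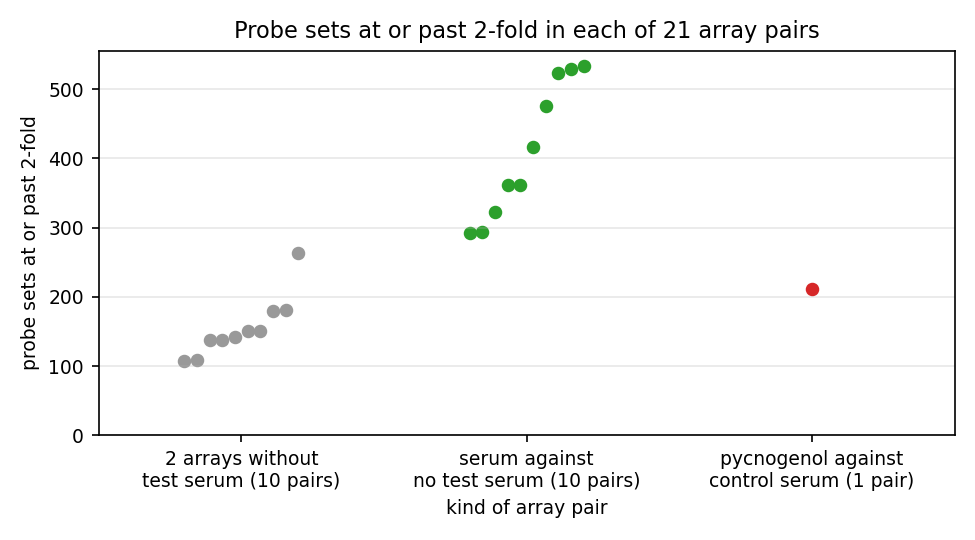
Number of probe sets at or past 2-fold, of 20336 above the signal filter, in each of the 21 pairs of arrays (each point is 1 pair, vertical axis in probe sets, starting at 0). The pycnogenol and control serum pair, with 211, lies above 9 of the 10 pairs of arrays without test serum and below the untreated and resveratrol pair, at 263 (without the resveratrol array the highest is 151), and under the 10 pairs that set a serum array against those, which run from 292 to 534.

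The serum arrays were next set against the range of the 5 arrays without test serum. The pycnogenol serum array lay below the range of the 5 arrays for 5341 probe sets (26.3%) and above it for 4953 (24.4%), and the control serum array for 5166 (25.4%) and 4354 (21.4%). Any 1 of the 5 arrays lay below the range of the other 4 for 3267 to 4632 probe sets and above it for 3816 to 4533. Against the same sets of 4 arrays both serum arrays departed for more, the pycnogenol array below for 5768 to 6065 and above for 5383 to 5635, and the control serum array below for 5599 to 5975 and above for 4782 to 5120. The split between the directions rests on the scaling: with each array centred on its median, the pycnogenol array was below the range of the 5 for 3299 and above it for 6959, and the control serum array for 2072 and 8204. Distances of at least 1 on the log2 scale were rarer among the 5 arrays themselves, with 10 to 19 probe sets that far below and 0 to 3 that far above the range of the other 4. Against the same sets of 4 arrays, the pycnogenol serum array was that far below for 112 to 135 probe sets and the control serum array for 44 to 47. Against all 5, the pycnogenol serum array was at least 1 below for 107 probe sets and at least 1 above for 22, and the control serum array for 38 and 15. The probe sets far below the range on both numbered 21, which is 19.6% of the 107 and 55.3% of the 38. Of the 99 probe sets at least 2-fold lower with pycnogenol serum, 45 had only the pycnogenol array outside the range, below it, 11 had only the control serum array outside, above it, and 27 had the arrays on opposite sides. In another 15 both arrays were below the range with the pycnogenol array further from it. Of the 112 higher ones, 43 had only the control serum array outside, below the range. In 29 only the pycnogenol array was outside, above it, and 29 had the arrays on opposite sides. Of all 20336 probe sets, 20.5% had only the pycnogenol array outside, in either direction, and 16.7% only the control serum array. Both were outside on the same side in 26.7% and on opposite sides in 3.39%. The 99 and 112 were picked by the difference between the serum arrays, which itself favours arrays outside the range. Their classes are therefore a description only.

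Promoters of the members of the ATF4 and CHOP list and of the glucocorticoid list that differed by at least 2-fold are shown because these members are described first below. The sequence table, from RefSeq on GRCh38.p14, held 6 of the 7 members, and INHBE was not among them. Each is the 250 bases upstream of the gene's start as that table gives it, 5' to 3' on the gene's strand, and a gene may use other starts. Capitals mark the C/EBP-ATF response element core TGATGNAA, the element through which ATF4 and CHOP dimers bind, on either strand.

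CHAC1: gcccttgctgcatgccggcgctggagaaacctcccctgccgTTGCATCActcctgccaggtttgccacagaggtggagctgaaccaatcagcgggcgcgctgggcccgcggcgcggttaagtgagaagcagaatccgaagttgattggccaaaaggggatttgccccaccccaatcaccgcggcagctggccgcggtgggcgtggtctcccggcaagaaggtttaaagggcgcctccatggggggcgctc
ATF3: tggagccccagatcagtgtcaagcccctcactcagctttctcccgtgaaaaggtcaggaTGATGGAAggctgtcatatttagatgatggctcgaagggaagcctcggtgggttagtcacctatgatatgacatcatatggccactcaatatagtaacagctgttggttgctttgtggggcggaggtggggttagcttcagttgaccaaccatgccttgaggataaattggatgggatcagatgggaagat
DDIT4: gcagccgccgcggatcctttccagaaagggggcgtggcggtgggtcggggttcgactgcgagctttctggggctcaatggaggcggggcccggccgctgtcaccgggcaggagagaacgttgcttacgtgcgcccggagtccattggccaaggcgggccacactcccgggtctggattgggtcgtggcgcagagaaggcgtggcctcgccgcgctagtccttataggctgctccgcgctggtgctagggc
RARS1: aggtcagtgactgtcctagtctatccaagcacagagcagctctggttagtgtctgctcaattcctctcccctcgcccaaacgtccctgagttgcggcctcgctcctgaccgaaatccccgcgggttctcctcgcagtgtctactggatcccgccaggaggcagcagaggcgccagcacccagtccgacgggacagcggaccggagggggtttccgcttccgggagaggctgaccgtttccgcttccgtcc
TSC22D3: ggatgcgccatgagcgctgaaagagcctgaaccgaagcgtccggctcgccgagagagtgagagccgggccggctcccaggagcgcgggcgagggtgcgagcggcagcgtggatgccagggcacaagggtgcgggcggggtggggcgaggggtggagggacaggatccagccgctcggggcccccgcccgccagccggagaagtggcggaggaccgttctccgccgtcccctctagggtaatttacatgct
KLF9: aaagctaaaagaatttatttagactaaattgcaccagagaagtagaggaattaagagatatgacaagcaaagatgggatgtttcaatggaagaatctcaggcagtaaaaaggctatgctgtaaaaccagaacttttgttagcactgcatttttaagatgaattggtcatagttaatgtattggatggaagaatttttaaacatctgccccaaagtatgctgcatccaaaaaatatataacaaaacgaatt

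The windows lie at chr15:40953221-40953470 (CHAC1), chr1:212565157-212565406 (ATF3), chr10:72273674-72273923 (DDIT4) and chr5:168486221-168486470 (RARS1) on the plus strand, and at chrX:107775989-107776238 (TSC22D3) and chr9:70414658-70414907 (KLF9) on the minus strand. The core was found in CHAC1, from 209 to 202 bases before the start on the opposite strand, and in ATF3, from 191 to 184 bases before it. It occurred on either strand in 116 of the 8286 promoters of genes above the signal filter (1.4%), and in 4 of the 39 promoters found for members of the ATF4 and CHOP list (10.3%), those of AARS1, ASNS, ATF3 and CHAC1. The cyclic AMP response element TGACGTCA and the glucocorticoid element core ACANNNTGT, searched on both strands, were in none of the 6 windows, and in 3.05% and 2.15% of the 8286. The GC content was 64.8% for CHAC1, 68.8% for DDIT4, 63.2% for RARS1, 71.2% for TSC22D3, 49.2% for ATF3 and 32.4% for KLF9, beside a median of 65.2% (quartiles 58% and 72%).

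The gene lists were chosen with earlier results of these data known, so their shares beside all genes are a description only. Of the 46 members of the ATF4 and CHOP list above the filter, 38 were lower with pycnogenol than with control serum, where 48.4% of all 9950 genes were. The list's median difference was −0.21 on the log2 scale, beside 0.0081 for all genes, and among the 5 arrays without test serum the list's median varied with an SD of 0.059. This SD is of single arrays and not of differences between 2 arrays. At least 2-fold lower were 5 members (10.9%, against 0.342% of all genes), CHAC1, DDIT4, RARS1, INHBE and ATF3. None was 2-fold higher, where 0.251% of all genes were. The pycnogenol serum array was below the range of the 5 arrays for 41 members (89.1%, against 27.6% of all genes) and the control serum array for 39 (84.8%, against 26.6%). For 37 the pycnogenol array was both below the range and below the control serum array, as were 21.2% of all genes. In these bulk RNA samples fewer cells that express a gene and less of its RNA per cell cannot be told apart. Both serum arrays thus had low levels of this list, with a median of −0.53 from the median of the 5 arrays for pycnogenol serum and of −0.28 for control serum.

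CHAC1, an enzyme that degrades glutathione, read 1273 in the untreated culture, 1273 with catechin, 1852 with epicatechin, 1407 with taxifolin, 1497 with resveratrol, 1077 with control serum and 143 with pycnogenol serum. Its difference of −2.91 (7.54 times lower) was the largest in any list, and the pycnogenol array was 3.16 below the lowest of the 5 arrays, while the control serum array was 0.24 below it. DDIT4, the mTORC1 inhibitor also called REDD1, read 11957, 9525, 12014, 10654 and 10467 in the same order on the 5 arrays, 8185 with control serum and 1253 with pycnogenol serum (−2.71, 6.53 times lower). The control serum array was again just under the others and the pycnogenol array far under all 6. INHBE, the activin beta E chain, read 1198, 1336, 1566, 1114 and 1316 on the 5 arrays, 686 with control serum and 305 with pycnogenol serum (−1.17), so that both serum arrays stood below the range. ATF3, a stress-induced repressor of the same protein family as ATF4, read 1447, 1359, 1607, 1513 and 1654 on the 5 arrays, 1444 with control serum and 722 with pycnogenol serum, just past 2-fold lower. Here only the pycnogenol array was outside the range, by 0.91, and a second probe set gave −0.78. The probe sets of DDIT4 and ATF3, and those of KLF9, TSC22D3, EGR1, KLF4 and IL1A below, carry the suffix _s_at, which marks sets that can match several transcripts.

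Just short of 2-fold were DDIT3 and VLDLR. DDIT3, which encodes CHOP, read 3754, 3359.8, 3675, 3881 and 2557 on the 5 arrays, 2052 with control serum and 1026 with pycnogenol serum. VLDLR, the very low density lipoprotein receptor, read 2865, 1839, 2688, 2717 and 1906 on the 5 arrays, 1322 with control serum and 662 with pycnogenol serum. For both, the control serum array was below the range, by 0.32 and 0.48, and the pycnogenol array further below it, by 1.32 and 1.47. ATF4 itself read 41427, 42991, 43034, 45462 and 37361 on the 5 arrays, 33855 with control serum and 23348 with pycnogenol serum (−0.54). CEBPG, a dimer partner of ATF4, showed the same order, with 4722, 3886, 4408, 4115 and 3965 on the 5 arrays, 3066 with control serum and 1741 with pycnogenol serum (−0.82). TRIB3, a pseudokinase that inhibits AKT, read 10602 to 14766 on the 5 arrays, 5735 with control serum and 3868 with pycnogenol serum (−0.57), and its other probe set differed by −1.70. SLC7A11, the cystine transporter, read 13735 to 15535 on the 5 arrays, 8732 with control serum and 5982 with pycnogenol serum (−0.55), and its 3 probe sets ran from −0.55 to −0.11. Differences of the metabolic members varied. Asparagine synthetase (ASNS) read 24782 to 27877 on the 5 arrays, 23453 with control serum and 19992 with pycnogenol serum (−0.23). The serine synthesis enzyme PSAT1 read 37876 to 43515, 37038 and 32476 (−0.19), with −0.51 for its other probe set, and PHGDH, of the same pathway, read 4618 to 5785, 4709.7 and 3467 (−0.44). CTH, the enzyme that makes cysteine from cystathionine, read 3861 to 5275 on the 5 arrays, 2534 with control serum and 1742 with pycnogenol serum (−0.54), and its other probe set gave −0.49. CTH was below its range with either serum, and PHGDH with pycnogenol serum alone.

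RARS1, the arginyl-tRNA synthetase, was the exception among the members 2-fold lower. It read 7137, 7473, 4558, 10429.6 and 4149.9 on the 5 arrays, 20201 with control serum and 5802 with pycnogenol serum (−1.80). The pycnogenol array lay inside the range, and the control serum array was 0.95 above it. Members higher with pycnogenol serum included KLHL24 (0.41), ATF5 (0.31) and SHMT2 (0.16), none of which was above the range of the 5 arrays. The 4 probe sets of KLHL24 disagreed, from −0.71 to 0.41, with 2 of them lower and the pycnogenol array below the range for 3. Those of ATF5 were both higher (0.15 and 0.31), and those of SHMT2 ran from −0.01 to 0.16, with the pycnogenol array below the range for all 3.

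**Figure D2:**
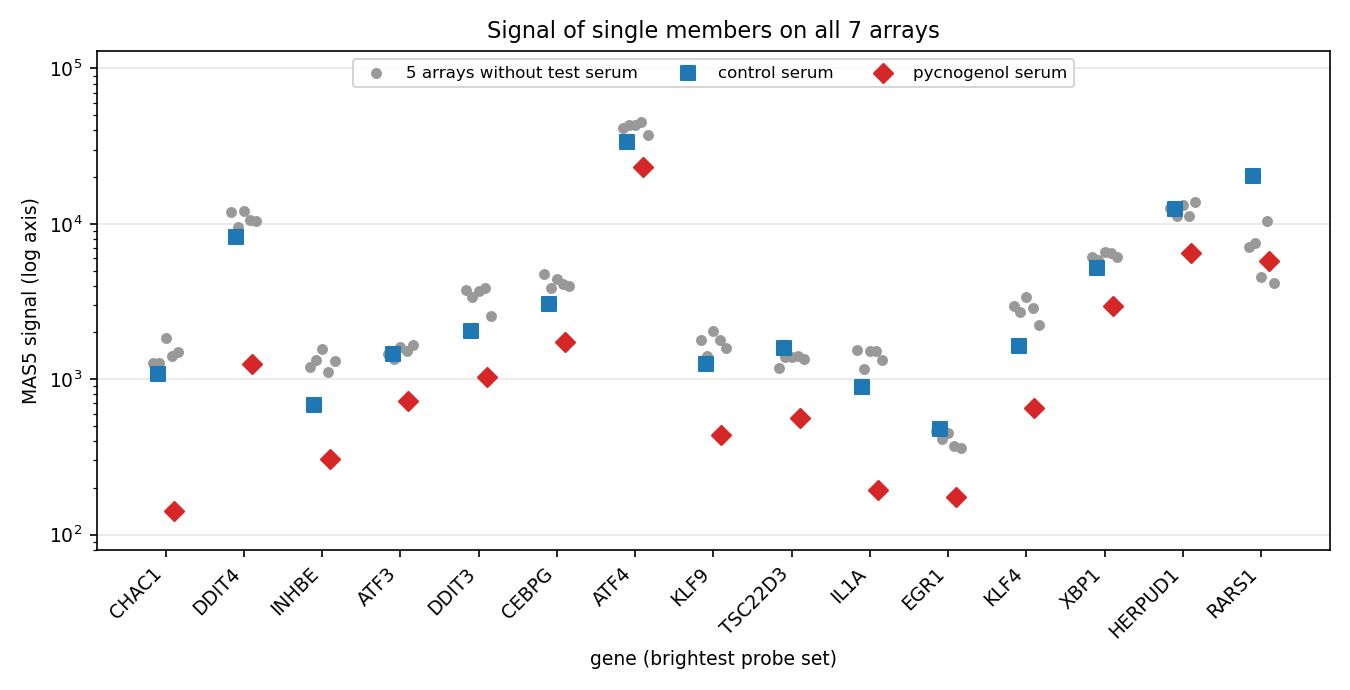
Signal of 15 genes on all 7 arrays (vertical log axis, MAS5 signal; grey points are the 5 arrays without test serum, the blue square is control serum, the red diamond pycnogenol serum; 1 array each, so no error bars). The red diamond lies below every other point for each gene except RARS1, where it lies among the grey points and the control serum array, at 20201, lies above them.

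**Figure D3:**
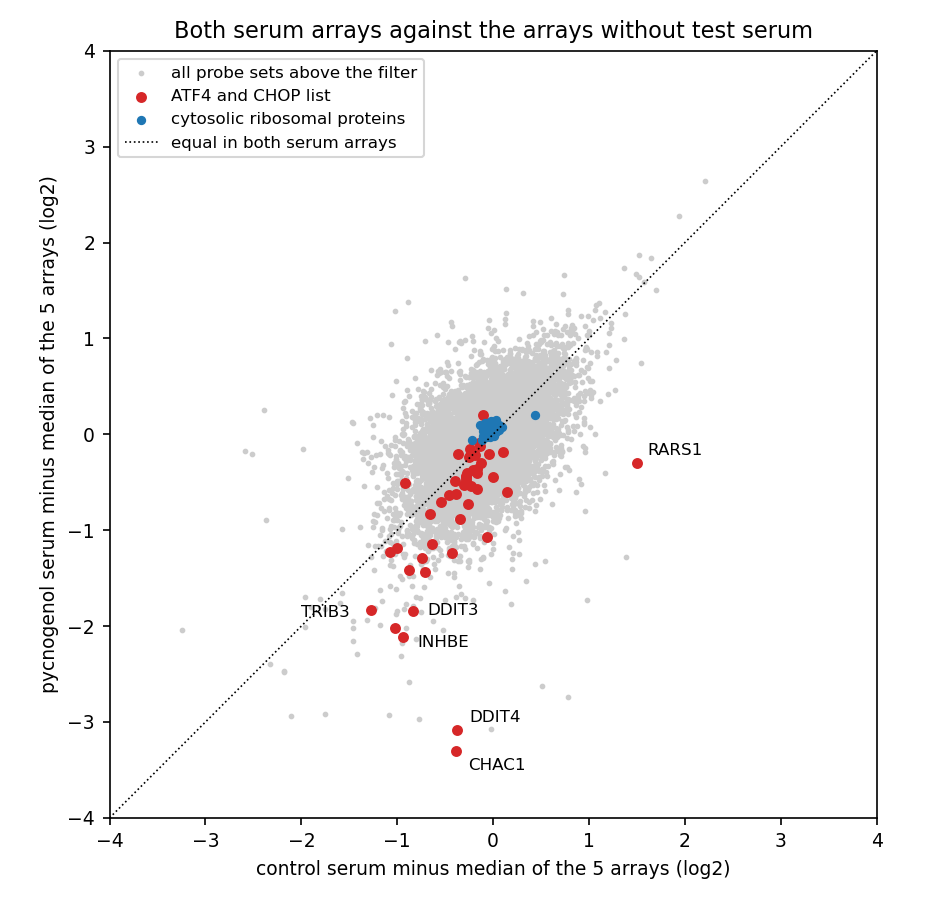
Log2 signal of the control serum array (horizontal) and of the pycnogenol serum array (vertical), each minus the median of the 5 arrays without test serum; grey points are the 20336 probe sets, red points the 46 genes of the ATF4 and CHOP list, blue points the 48 cytosolic ribosomal protein genes. CHAC1 and DDIT4 lie about 3 units down with little horizontal shift, and most other red points lie below 0 on both axes and under the dotted line of equal level.

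The chaperone branch of the endoplasmic reticulum stress response was not lower as a group. By brightest probe sets, the list of endoplasmic reticulum chaperones and XBP1 targets had 34 members above the filter. Its median difference was 0.016, with 16 members lower and none past 2-fold. The pycnogenol array was below the range for 9 (26.5%) and above it for 10 (29.4%), close to 27.6% and 25.8% of all genes. Dimmer probe sets of the chaperone genes DNAJB9 and HSPA13 were past 2-fold lower. The 3 probe sets of DNAJB9 were all lower, from −1.27 to −0.30, and the 2 of HSPA13 gave −1.08 and −0.24. The pycnogenol array was below the range for each of them. By brightest probe sets HERPUD1 and XBP1 stood apart. HERPUD1, which acts in the degradation of misfolded proteins, read 12705, 11150.0, 13227, 11309.9 and 13776 on the 5 arrays, 12535 with control serum and 6452 with pycnogenol serum (−0.96), so that only the pycnogenol array left the range. XBP1, the transcription factor spliced by IRE1, read 6073, 5817, 6615, 6500.3 and 6133 on the 5 arrays, 5196 with control serum and 2956 with pycnogenol serum (−0.81). The chaperone BiP (HSPA5) read 33409 to 34658 on the 5 arrays, 37063 with control serum and 32477 with pycnogenol serum (−0.19), and its other probe set gave 0.27. SDF2L1, a luminal cochaperone, was above its range of 1192 to 1610.0 with either serum, at 2407 with control and 2618 with pycnogenol serum.

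Among 13 members of the mTORC1 brake list, 8 were lower (61.5%, against 48.4% of all genes) and 1, DDIT4, was at least 2-fold lower (7.69%, against 0.342%), with a median of −0.024. For 4 of the 13 the pycnogenol array was below the range (30.8%), near the 27.6% of all genes. The control serum array was below it for 5 (38.5%, against 26.6%). NPRL2, a subunit of the amino acid sensing GATOR1 complex, read 2036, 2009, 2116, 1533 and 1943 on the 5 arrays, 2079.8 with control serum and 1248 with pycnogenol serum (−0.74). SESN2, a leucine sensor and ATF4 target, read 2444, 1546, 2308, 2205 and 1702 on the 5 arrays, 1346 with control serum and 816 with pycnogenol serum (−0.72). The other direction was taken by AKT1S1, which encodes the mTORC1 subunit PRAS40, with 671 to 933 on the 5 arrays, 769.7 with control serum and 1069.6 with pycnogenol serum (0.47). TSC1 and TSC2, the subunits of the main negative regulator, differed by −0.03 and 0.15.

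Genes induced by growth factor withdrawal or FOXO factors numbered 29 above the filter, of which 19 were lower (65.5%, against 48.4% of all genes) and 1, KLF9, was at least 2-fold lower (3.45%, against 0.342%), with a median of −0.11. The pycnogenol array was below the range for 19 (65.5%, against 27.6% of all genes) and the control serum array for 16 (55.2%, against 26.6%). In several members only the pycnogenol array left the range. ARRDC3, an arrestin-like adaptor, read 1039 to 1424 on the 5 arrays, 1179 with control serum and 666 with pycnogenol serum (−0.83). BCL2L11, the proapoptotic BIM, read 861 to 1102, 1061 and 688 (−0.63), but its 3 other probe sets were higher with pycnogenol serum, by up to 0.51. The repressor BCL6 read 2407 to 3119, 2530.3 and 1717 (−0.56). CCNG2, an atypical cyclin, was already low with control serum, at 1974 against a range of 3331 to 4157, and read 1338 with pycnogenol serum (−0.56), and its 4 probe sets were all lower, from −1.33 to −0.33. TXNIP, a glucose-responsive arrestin, differed by 0.02, with −0.16 to 0.52 over its 3 probe sets.

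Glucocorticoid targets were split. Of 25 members above the filter 15 were lower (60%, against 48.4% of all genes), 3 of them at least 2-fold (DDIT4, KLF9 and TSC22D3; 12%, against 0.342%), with a median of −0.053. Below the range were 11 members on the pycnogenol array (44%, against 27.6%) and 7 on the control serum array (28%, against 26.6%). KLF9, a Krüppel-like repressor, read 1796, 1407, 2037, 1796 and 1591 on the 5 arrays, 1251 with control serum and 436 with pycnogenol serum (−1.52). Its other probe set gave the same direction but a smaller difference, −0.30. TSC22D3, the glucocorticoid-induced leucine zipper GILZ, read 1183, 1388, 1390.1, 1419.8 and 1354 on the 5 arrays, 1595 with control serum and 562 with pycnogenol serum (−1.50). The serum arrays were therefore on opposite sides of the range, the control array 0.17 above it and the pycnogenol array 1.07 below it. The phosphatase DUSP1 had the same pattern, with 6430.4, 4637, 6718, 5894 and 4984 on the 5 arrays, 7813 with control serum and 4146 with pycnogenol serum (−0.91). ERRFI1, a feedback inhibitor of the EGF receptor, read 19612 to 20822 on the 5 arrays and 20038 with control serum, but 12398 with pycnogenol serum (−0.69). Other members of the list did not follow. FKBP5, a cochaperone of the glucocorticoid receptor, was above its range of 2765 to 3221 on both serum arrays, with 4441 for control and 3985 for pycnogenol serum (−0.16), and the kinase SGK1 read 12604 to 15260.1 on the 5 arrays, 15989 with control serum and 17237 with pycnogenol serum (0.11). The receptor gene NR3C1 differed by −0.05, with −0.10 to 0.55 over its 5 probe sets.

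Of 39 immediate early genes above the filter, 29 were lower with pycnogenol serum (74.4%, against 48.4% of all genes), 3 of them by at least 2-fold (EGR1, KLF4 and ATF3; 7.69%, against 0.342%), and the median was −0.12. The pycnogenol array was below the range for 22 (56.4%, against 27.6% of all genes) and the control serum array for 12 (30.8%, against 26.6%). The control serum array was above it for 13 (33.3%, against 22.4%) and the pycnogenol array for 5 (12.8%, against 25.8%). EGR1, the zinc finger factor that growth factors induce first, was dim: it read 462, 413, 448, 373 and 359.6 on the 5 arrays, 475 with control serum and 175 with pycnogenol serum (−1.44). KLF4, another zinc finger factor, read 2969, 2724, 3383, 2864 and 2249 on the 5 arrays, 1639.9 with control serum and 652 with pycnogenol serum (−1.33), below the range on both serum arrays. The growth regulator MYC read 7078, 6607, 7174, 6955 and 6147 on the 5 arrays, 6650.3 with control serum and 4559.5 with pycnogenol serum (−0.54), so that only the pycnogenol array was outside. IER2, a rapidly induced nuclear protein, was high with control serum, at 8871 against a range of 4887 to 6980.0, and inside that range with pycnogenol serum, at 6411. The AP-1 subunit JUN, at 20692 with control and 19777 with pycnogenol serum, was inside its range of 18512 to 22916 on both arrays, and its 4 probe sets gave −0.07 to 0.27. The serum response factor gene SRF and the GTPase gene RHOB differed by −0.03 and 0.10 and were above the range with both sera.

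NF-kB targets and inflammatory cytokines were mixed. Of 26 above the filter 15 were lower (57.7%, against 48.4% of all genes), 1 by at least 2-fold (3.85%, against 0.342%), and the median was −0.064. The pycnogenol array was above the range for 14 (53.8%, against 25.8%) and below it for 7 (26.9%, near the 27.6% of all genes). The control serum array was above it for 9 (34.6%, against 22.4%) and below it for 4 (15.4%, against 26.6%). IL1A, the cytokine interleukin 1 alpha, read 1536, 1158, 1519, 1517 and 1339 on the 5 arrays, 889 with control serum and 193 with pycnogenol serum (−2.20, 4.6 times lower). IL1B read 24251, 18176, 24301, 21028 and 17774 on the 5 arrays, 7662 with control serum and 4718 with pycnogenol serum (−0.70), so most of its distance from the 5 arrays was present with control serum too. LIF, a cytokine of the interleukin 6 family, read 1228 to 1582 on the 5 arrays, 1439.7 with control serum and 882 with pycnogenol serum (−0.71). The inhibitor NFKBIA was the largest in the other direction, with 2725, 2299, 1735, 2115 and 1828 on the 5 arrays, 2162 with control serum and 3265 with pycnogenol serum (0.59). The subunit RELA read 1797 to 2566 on the 5 arrays, 2013 with control serum and 2723 with pycnogenol serum (0.44), and NFKB1 differed by 0.01.

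**Figure D4:**
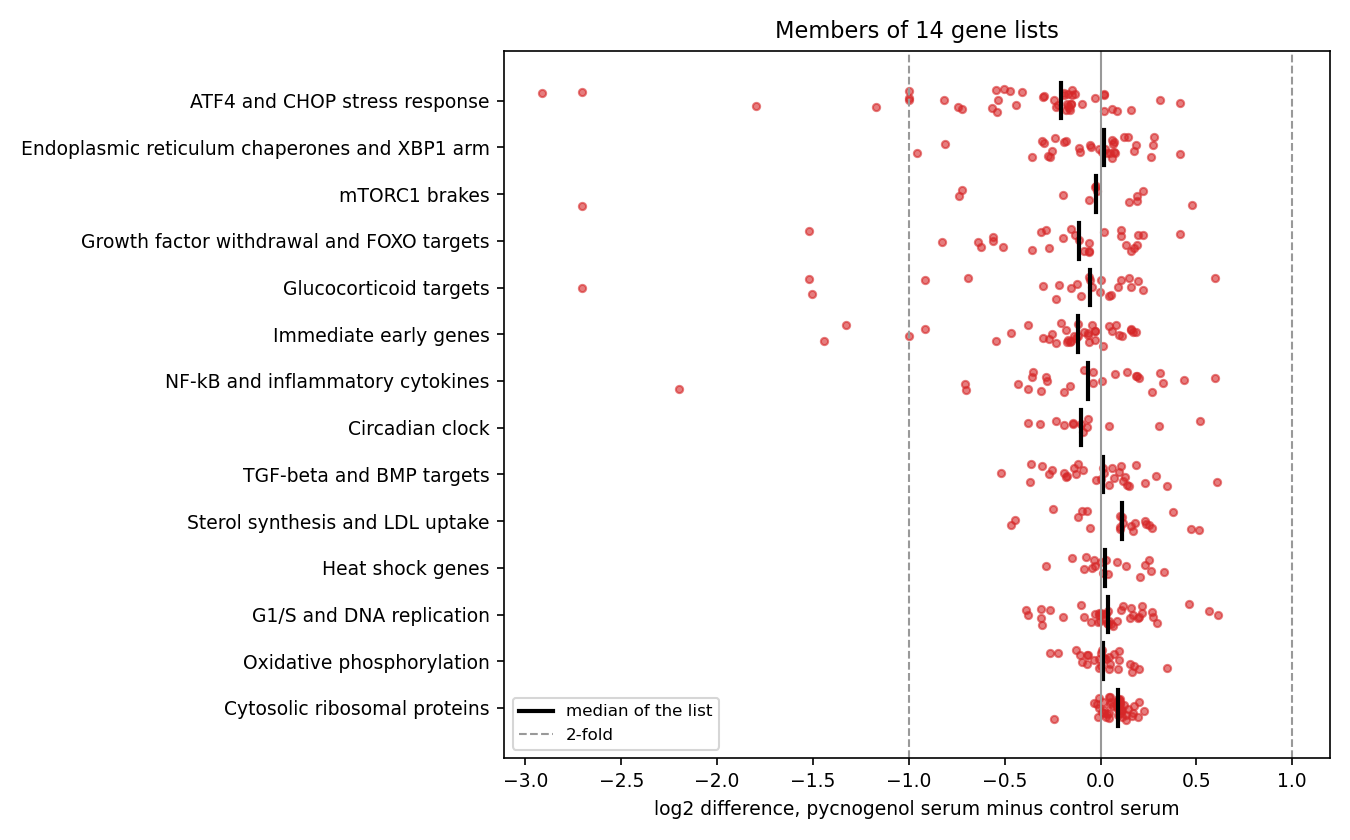
Log2 difference, pycnogenol serum minus control serum, of each member above the filter (red points, spread vertically at random within a row) in 14 gene lists; black bars are list medians, dashed lines 2-fold. The points past the left dashed line belong to the stress, mTORC1 brake, growth factor withdrawal, glucocorticoid, immediate early and cytokine lists, no point lies past the right one, and the ribosomal protein list is the narrowest. Lists share genes: DDIT4 is in the stress, mTORC1 brake and glucocorticoid lists. KLF9 is in the growth factor withdrawal and glucocorticoid lists, and ATF3 in the stress and immediate early lists.

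Among single genes outside these lists, GNG12, KDM7A and TUBE1 departed on the pycnogenol array alone. GNG12, a G protein gamma subunit, read 7049, 5741, 5349, 6381 and 5611 on the 5 arrays, 6602 with control serum and 2167 with pycnogenol serum (−1.61), and its other probe sets gave −0.73 and −0.12. KDM7A, a histone demethylase, read 900.2 to 1425 on the 5 arrays, 1066 with control serum and 376 with pycnogenol serum (−1.51), and its other probe set gave −0.85. TUBE1, epsilon tubulin, read 3840.1 to 6193 on the 5 arrays, 4056 with control serum and 1637 with pycnogenol serum (−1.31). The noncoding transcript LINC02806 read 2264 to 2576 on the 5 arrays, 1169 with control serum and 326 with pycnogenol serum (−1.84), and its other probe set gave −0.86. IKBKB, the NF-kB kinase IKK beta, read 318 to 468, 330 and 152 (−1.12), with −0.19 for its other probe set. RARA, a retinoic acid receptor gene, and MGST3, a microsomal glutathione transferase gene, had differences of −3.05 and −3.14 on dim probe sets, with signals of 10.5 and 54.3 with pycnogenol serum, the former under the floor of 34.9. Their other probe sets gave 0.08 and −0.29.

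The largest higher differences were in genes of varied function, and other probe sets of the same genes gave smaller ones. ELK4, a serum response factor partner, read 2482, 1983, 5245, 1752 and 3356 on the 5 arrays, 1218 with control serum and 6071 with pycnogenol serum (2.32), but its other probe sets gave −0.04, 0.06 and 0.09. SECISBP2L, a homologue of a selenoprotein translation factor, read 327 to 679 on the 5 arrays, 265 with control serum and 1275 with pycnogenol serum (2.26), and its other probe set gave 0.13. SPEN, a transcriptional corepressor, read 2604 to 5149 on the 5 arrays, 2930.4 with control serum and 7319.5 with pycnogenol serum (1.32), and its other probe sets gave 0.58 and 0.25. DCUN1D1, a cullin neddylation factor, read 1939 to 3958, 3129 and 8137 (1.38), and RAB3B, a vesicle GTPase, read 346 to 693, 368 and 1401 (1.93), both with only the pycnogenol array outside. The other probe sets of DCUN1D1 gave −0.18 to 0.47 and those of RAB3B −0.47 to 0.25. PLEC, the cytoskeletal linker plectin, read 488 to 617 on the 5 arrays, 340.2 with control serum and 1094 with pycnogenol serum (1.69), with the serum arrays on opposite sides of the range. Over the 211 probe sets, 107 belonged to a gene with another probe set above the filter, and that one had the same direction in 68 (63.6%), in 31 of 51 higher and 37 of 56 lower ones. The median difference of those other probe sets was 0.05 for the higher and −0.14 for the lower.

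Some 2-fold differences came from the control serum array. GNAS, the stimulatory G protein alpha subunit, read 6079 to 11653 on the 5 arrays with this probe set, 3106 with control serum and 8516 with pycnogenol serum (1.46), and its 7 other probe sets gave 0.02 to 0.40. TRMT10A, a tRNA methyltransferase, read 1112 to 1358 on the 5 arrays, 319 with control serum and 1134 with pycnogenol serum (1.83), and its other probe sets gave −0.14 and 0.21. DGKZ, a diacylglycerol kinase, read 659 to 872 on the 5 arrays, 137 with control serum and 677 with pycnogenol serum (2.30). CCDC88A, an actin-binding protein also called girdin, read 673 to 1460.0 on the 5 arrays, 2286 with control serum and 769 with pycnogenol serum (−1.57), and its other probe set gave −0.15. In each of GNAS, TRMT10A, DGKZ and CCDC88A the pycnogenol array lay inside the range of the 5 arrays. PAM, a peptide-amidating enzyme, had both arrays outside, with 1216 to 1425 on the 5 arrays, 2657 with control serum and 782 with pycnogenol serum (−1.76), and its other probe sets gave −0.23 and −0.19.

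Cytosolic ribosomal proteins, among the most abundant mRNAs of growing cells, were slightly higher with pycnogenol serum in 42 of 48 genes by brightest probe sets. The median was 0.090, and 12.5% were lower, against 48.4% of all genes. Over all their probe sets the differences ran from −0.81 (RPL35A and RPL37) to 0.47 (RPS23). For RPL35A, RPL37, RPS16 and RPS24, among others, the pycnogenol array was below the range for 1 probe set. The counts that follow are by brightest probe sets. The pycnogenol array was above the range for 21 (43.8%, against 25.8% of all genes) and below it for none, and the control serum array was below it for 13 (27.1%, near the 26.6% of all genes) and above it for 1. RPS6, the S6 kinase substrate, read 63932 to 67169.5 on the 5 arrays, 59408 with control serum and 69478 with pycnogenol serum (0.23). After quantile normalization the list's median was 0.0048, and after loess between the serum arrays 0.059. The nuclear genes of oxidative phosphorylation differed by a median of 0.015 over 28 genes, with 17 higher, 11 lower and the pycnogenol array below the range for 1.

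The mRNAs encoded by the mitochondrial genome were lower with pycnogenol serum. This group was chosen after its values were seen. Of the 13 such mRNAs, 7 had probe sets above the filter, and all 10 of those probe sets were lower, by a median of −0.83 (−1.52 to −0.49), with 2 at least 2-fold lower. Of all genes 48.4% were lower, and of all probe sets above the filter 0.487% were at least 2-fold lower. The pycnogenol array was below the range of the 5 arrays for all 10 and the control serum array for 3, beside 26.3% and 25.4% of all probe sets above the filter. ND4, a complex I subunit, read 24351, 29377, 30150.1, 36552 and 31335 on the 5 arrays, 25065 with control serum and 12092 with pycnogenol serum (−1.05), and its other probe set gave −0.73. ND2, also of complex I, read 21111 to 27586 on the 5 arrays, 22636 with control serum and 12372 with pycnogenol serum (−0.87). ATP6, a subunit of ATP synthase, read 34746 to 46146 on the 5 arrays, 35745 with control serum and 20727 with pycnogenol serum (−0.79). The cytochrome c oxidase subunits read 4706 and 2388 for COX3 (−0.98) and 16229.9 and 11534 for COX1 (−0.49) with control and pycnogenol serum. COX2 read 50321 and 33631 (−0.58), and its other probe set gave −0.63. ND6, the light-strand complex I gene, had 11579 with control serum, above its range of 6226 to 10132, and 6167 with pycnogenol serum (−0.91), only 0.01 below that range.

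**Figure D5:**
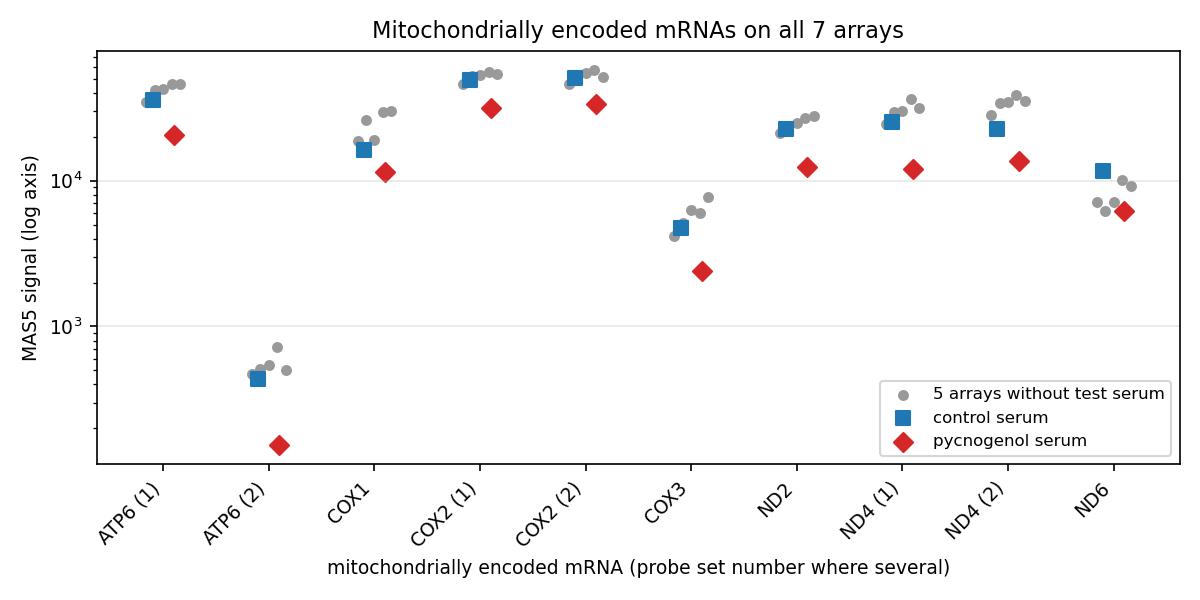
Signal of 10 probe sets for 7 mitochondrially encoded mRNAs on all 7 arrays (vertical log axis, MAS5 signal; grey points are the 5 arrays without test serum, the blue square is control serum, the red diamond pycnogenol serum; 1 array each, so no error bars). The red diamond lies below the blue square and below all grey points for each probe set, by the least for ND6.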

How the data were processed

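RNA from 7 HT1080 cultures was hybridised to Affymetrix U133 Plus 2.0 arrays. The deposited values are signal intensities on a linear scale, made by the authors with MAS5 per the submitters' processing notes, and their trimmed mean is 1000 on every array, so each array was already scaled. Values below 34.9, their 25th percentile, were set to it before log2. A fold is the ratio of 2 intensities after this floor, and the log2 difference is pycnogenol serum minus control serum. MAS5 signals of dim probe sets are noisy, hence the filter at a mean of 269. With 1 array per condition nothing was tested. Gene names came from the platform annotation, with symbols updated through RefSeq: 41097 probe sets named 1 gene, 1801 several and 11777 none here. The 27 gene lists, the members and the rules were chosen with earlier results of these data known. Genes named were mostly taken from the 10 largest differences in each direction among bright probe sets, the 10 largest departures of either serum array alone, the 3 largest in each list, and members of the stress, hormone and cytokine lists. Not all genes of these groups are described, FAXDC2 (−2.70), LINGO3 (2.01) and QSER1 (1.56) among those left out. A simulated data set with 200 changed probe sets tested the counting: of those made 3-fold lower, 195 of 200 were called, and of those made 2-fold lower 91. Unchanged probe sets called numbered 8 and 6, where real pairs of arrays without test serum gave 108 to 263 at or past 2-fold. The 8 and 6 rest on the simulated noise and give no level of false calls for the real arrays. Only probe sets well above the filter were changed, and all had the same noise, so the recovery does not extend to dim probe sets. Python 3.11.15, pandas 2.3.3, numpy 2.4.6 and statsmodels 0.14.6 were used.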

Additional observations from a re-analysis of the deposited data

How the results depend on the processing

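With 1 array per condition and no replicate, no error could be estimated. No paired analysis was possible because each condition has a single array. The 112 higher and 99 lower probe sets became 27 and 34 when the filter was raised to the 75th percentile of mean signal, 2657 and 2483 with no filter, 52 and 43 with both serum signals above 269, 74 and 57 without probe sets that may cross-hybridise (_x_at and _s_at), 647 and 652 at 1.5-fold, 13 and 18 at 3-fold, and 25 and 34 by genes. Below its range the pycnogenol array had 3299 probe sets after median centring, and the control serum array 2072, with 8204 above it. The 4 counts of the pycnogenol array above and below and the control serum array above and below were 9180, 8786, 7959 and 8666 with no filter, 2857, 3177, 2498 and 3088 without _x_at and _s_at, and 222, 634, 147 and 406 at a distance of at least 0.5. Raising the filter to the 75th percentile, the counts below were 3552 and 3390. Leaving out any 1 of the 5 arrays kept each of these 4 counts within 1.5 times. The highest count among pairs of arrays without test serum, 263, was 151 to 263 when 1 of the 5 arrays was left out, a step chosen after seeing the data. List medians are given here where they changed by more than their SD over the 5 arrays, for the 8 lists with their own account above, and for the 16 other lists where a median larger than its SD changed sign. Of 208 alternative medians of those 16, another 41 moved by more than that SD, among them, with the filter at the 75th percentile, 0.11 for the interferon response and −0.12 for AhR targets, and, for the pycnogenol array against the 5 arrays, 0.35 for TGF-beta and 0.29 for heat shock genes. That of ATF4 and CHOP was −0.27 to −0.18 under every change of normalization, floor, filter or probe set. Median centring gave −0.038 for endoplasmic reticulum chaperones, −0.11 for glucocorticoid targets, −0.16 for growth factor withdrawal, −0.078 for mTORC1 brakes, −0.17 for immediate early genes, −0.12 for NF-kB and 0.036 for ribosomal proteins, which moved to 0.0048 with quantile normalization, 0.059 with loess and 0.047 without _x_at and _s_at. The filter at the 75th percentile gave −0.010 for chaperones, −0.10 for glucocorticoid targets and −0.016 for NF-kB, and no filter gave −0.061 for growth factor withdrawal, 0 for NF-kB and, reversed, 0.022 for hypoxia. Without _x_at and _s_at the medians were 0.057 for chaperones, −0.0016 for glucocorticoid targets (the same with all probe sets averaged), −0.15 for growth factor withdrawal, 0.19 for mTORC1 brakes and, reversed, 0.12 for the BCL2 family (0.027 with all averaged). TRMT10A, named from an _x_at probe set, was −0.14 on its brightest probe set free of these suffixes, and FBXO22 −0.23; both were reversed, but the FBXO22 probe set past 2-fold (1.34) is not of the removed kind, so for it the setting only exchanged 1 probe set for another. Against the median of the 5 arrays instead of control serum, the pycnogenol array gave −0.53 for ATF4, −0.035 for chaperones, −0.12 for glucocorticoid targets, −0.35 for growth factor withdrawal, −0.13 for mTORC1 brakes, −0.17 for immediate early genes and, reversed, 0.15 for NF-kB, −0.36 for sterol synthesis and 0.053 for the clock. The control serum array gave −0.28 for ATF4, −0.021 for glucocorticoid targets, −0.23 for growth factor withdrawal, −0.13 for mTORC1 brakes, −0.065 for immediate early genes and, reversed, 0.036 for NF-kB, −0.36 for sterol synthesis, 0.15 for the clock and −0.019 for ribosomal proteins. The cause of these shifts was not tested. The mitochondrial median was −0.88 to −0.83 under the normalizations, chosen after seeing the data.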

Other observations

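By brightest probe sets, genes of the G1 to S transition and DNA replication were higher with pycnogenol serum for 26 of 41 members (median 0.038, none at 2-fold). Lower were 36.6%, against 48.4% of all genes. The pycnogenol array was above the range of the 5 arrays without test serum for 25 (61%, against 25.8% of all genes). The control serum array was above it for 16 (39%, against 22.4%). The cell cycle factor E2F1 gave −0.39 on its brightest probe set and 2.41 on the other. CDC25A, the phosphatase that activates CDK2, read 919 to 1193 on the 5 arrays, 1502 with control serum and 2067 with pycnogenol serum (0.46), but 1 of its 3 probe sets gave −0.80. The replication licensing factor CDT1 read 3076 to 4331, 3051 and 4667 (0.61), and its other probe set gave 0.04. The mitotic kinase PLK1 read 484 to 806 on the 5 arrays, 503 with control serum and 988 with pycnogenol serum (0.97), while the G2/M list as a whole had a median of −0.0056.

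Other lists held single members that differed. VEGFA, the angiogenic growth factor, read 18532 to 21506 on the 5 arrays, 12060.1 with control serum and 8156 with pycnogenol serum (−0.56), and PFKFB4, a regulator of glycolysis in the same hypoxia list, read 965 to 1262, 958 and 1647 (0.78). BAX, a proapoptotic BCL2 family protein, read 3981 to 5137 on the 5 arrays, 3751 with control serum and 5772 with pycnogenol serum (0.62), and PMAIP1, which encodes NOXA, read 9877 to 15042, 14569 and 8689 (−0.75). In the matrix list the metalloprotease MMP16 read 1667 to 1968, 1183 and 774 (−0.61), while its other probe set gave 1.10, past 2-fold in the opposite direction. By brightest probe sets ADAM15 was the only member of the list past 2-fold. It read 188 to 941 on the 5 arrays, 591 with control serum and 175 with pycnogenol serum (−1.76), the last 0.10 below the range. SLFN5, of the interferon list, read 3283 to 5906 on the 5 arrays, 1999 with control serum and 1300.3 with pycnogenol serum (−0.62), and its 5 probe sets were all lower, from −1.11 to −0.07. BMP2 read 354 to 429.7, 344 and 525 (0.61).

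Circadian clock genes had a median of −0.10, with 10 of 13 lower (76.9%, against 48.4% of all genes), beside an SD of the list's median of 0.031 over the 5 arrays. Against the median of those arrays the clock list stood at 0.15 with control serum and at 0.053 with pycnogenol serum. Sterol synthesis and LDL uptake had a median of 0.11, with 15 of 22 higher, beside an SD of 0.079, and both serum arrays were lower than the 5 arrays, by a median of −0.36. The lists not yet described had medians between −0.050 and 0.049, where that of all genes was 0.0081. The medians were 0.014 for TGF-beta and BMP targets, −0.012 for NRF2 targets, 0.022 for heat shock genes, −0.015 for fatty acid and PPAR targets, −0.036 for hypoxia and glycolysis and 0.019 for metallothioneins. They were −0.030 for matrix proteolysis, 0.049 for p53 targets and −0.050 for the BCL2 family and caspases. The interferon response had −0.0094, AhR targets −0.033 and the HT1080 and mesenchymal markers 0.046.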
